A study of Caenorhabditis elegans with 10 samples.

Results

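The response of mlk-1 mutant adults of the nematode Caenorhabditis elegans to fasting was read from 4 of the 10 arrays of the series, chosen by their strain label: 2 of fasted animals and 2 of fed animals. Animals were put on the regime on adult day 2 and kept on it for 2 days, so that they were sampled on adult day 4. Fasted animals had no food, whereas fed animals had the bacterial strain OP50-1. The other 6 arrays, 3 fasted and 3 fed, came from mek-1 mutants of the same age, fasted or fed in the same way, and served to estimate the spread and to test where the responses of the strains differed. The alleles of the strains are not stated in the labels, and wild-type animals were not analysed here. Nothing in the labels says that the replicates came from separate cultures, so p-values measure only the spread between these samples.

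MLK-1 is a kinase at the top of a JNK-type MAP kinase cascade, in which it acts on the kinase MEK-1, which in turn acts on the kinase KGB-1. This cascade is known for its part in stress resistance and axon regeneration, and it can act on the AP-1 transcription factors JUN-1 and FOS-1. When food is withdrawn, the worm intestine, which is at once gut, fat store and immune organ, is known to turn to stored fat by way of mitochondrial beta-oxidation, and genes of digestion and growth are known to be turned down.

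Total RNA of whole animals was labelled by 3′ in vitro transcription and hybridised to 1-colour arrays of the Affymetrix type, on which a probe set is a group of probes for 1 transcript. The deposited value of a probe set is a linear intensity, which was taken to log2 here. The lowest value of the table, its floor, is 16, and the medians of the 4 mlk-1 arrays lay between 72.2 and 74.9. Levels of different probe sets are not comparable with each other; medians and sums of intensity over several probe sets are given only to set arrays side by side, and brighter probe sets weigh more in the sums. The mek-1 probe set read 1137 to 1387 on the 4 mlk-1 arrays, against 66.5 to 139 on the 6 mek-1 arrays, and so it separated the strains as labelled. The mlk-1 probe set read 186 and 232 in fasted mlk-1 animals and 167 and 184 in fed mlk-1 animals, within or near its range in mek-1 mutants (128 to 197). Because the mutation's place relative to that probe set is not known here, the mlk-1 label could not be checked in this way. In whole animals, fewer cells of a type and less RNA per cell cannot be told apart.

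Among transcripts that passed the adjusted threshold, more were lower than higher in fasted mlk-1 adults, and the called decreases were larger. This order did not hold at an unadjusted p, as given below. Of 22548 probe sets, 346 (1.53%) passed an adjusted p of 0.05 in limma's moderated test with Benjamini-Hochberg adjustment over all probe sets; 113 were higher (0.501%) and 233 were lower (1.03%) in fasted animals. With 1 probe set taken per gene, 91 of 17118 genes were higher (0.532%) and 190 were lower (1.11%), together 1.64% of all genes. Of the called genes, 55 rose and 166 fell by at least 2-fold. The median level of the genes that fell was 106 in fasted animals and 450 in fed animals, while that of the genes that rose was 398 in fasted animals and 107 in fed animals. All genes together had a median intensity of 73.2 in either state, and their median change was 0.05 on the log2 scale. In all 281 called genes the 2 fasted arrays lay on one side of both fed arrays. Such separation held for 29.4% of all genes upward and for 16.5% downward, so a count of separated genes is read against those shares.

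The counts varied with the fit. The 4 mlk-1 arrays fitted alone gave 155 higher (0.687%) and 368 lower (1.63%) probe sets, and by gene 126 higher (0.736%) and 296 lower (1.73%); 302 of the 346 calls were shared. With the replicate number as a block, 593 probe sets were higher (2.63%) and 625 were lower (2.77%), including all 346, and by gene 2.76% were higher and 2.97% lower. At an unadjusted p of 0.05, 7.58% of all genes were higher and 4.5% were lower, so which direction held more genes depended on the threshold. Counts within gene lists under the block or at an unadjusted p are read against these shares. The lists and their members were chosen with earlier results of these data known. Their counts, medians and ranks are therefore descriptions and give no support of their own. Leaving out the fasted array numbered 1 left 121 probe sets, leaving out the fasted array numbered 2 left 132, and leaving out the fed array numbered 2 left 131, whereas leaving out the fed array numbered 1 left 348. Of the called genes, 22 of the 91 increases and 72 of the 190 decreases (37.9%) rest on probe sets whose name marks them as able to bind transcripts of several genes, against 24.6% of all genes. Among the named genes these include Y57E12B.1, Y57E12B.4, F46C5.1, ilys-5, C14C6.5, K12H4.7, dod-24, bcf-1, elo-6, far-3, aagr-2, clec-41, clec-174, vha-6, pgp-1, hsp-70, gst-27, nhr-21, his-71, nspd-7, ins-11, kgb-1, sek-1, icl-1 and the hrg-11 genes, whose values cannot be assigned to 1 gene with certainty. A second probe set of Y57E12B.4 bears no such mark and is given below.

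The largest increase was that of clx-1, on chromosome IV. Its probe set read 3253 and 4743 in fasted animals, against 59.3 and 73.5 in fed animals. Both fasted arrays were far above both fed arrays, a 59.5-fold difference (log2 change 5.89 ± 0.19, SE of the limma fit, n = 2 arrays per group, adjusted p = 4.32e-07). The adjacent genes Y57E12B.1 and Y57E12B.4 of chromosome V moved in the same direction. Y57E12B.1 had intensities of 372 and 456 in fasted animals, against 23.2 and 16 in fed animals, the last of these at the floor. Y57E12B.4 had 229 and 217 in fasted animals and 23.8 and 18.7 in fed animals. Their log2 changes were 4.42 ± 0.21 (limma adjusted p = 2.70e-06) and 3.40 ± 0.14 (limma adjusted p = 1.37e-06). A second probe set of Y57E12B.4, whose name does not mark it as binding several genes, gave 3.07 (limma adjusted p = 2.70e-06). The first probe set of each may bind transcripts of both or of other genes, and the fed values lie near the floor, so the sizes of these changes are uncertain.

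smf-2, which encodes a divalent metal transporter of the NRAMP family, read 334 and 320 in fasted animals, against 33.3 and 32.3 in fed animals. The arrays of each state were nearly equal, and the log2 change was 3.32 ± 0.13 (limma adjusted p = 1.37e-06). spp-27, a member of the saposin-like family, read 1400 and 1797 in fasted animals, against 96.2 and 103 in fed animals, a 15.9-fold rise (limma adjusted p = 0.00234). T22F3.11 read 1313 and 1595 in fasted animals, against 127 and 28.4 in fed animals, so that the fed arrays differed from each other more than the fasted ones did; its log2 change was 4.59 ± 0.50 (limma adjusted p = 0.00102). C23G10.11 rose by 3.44, Y60C6A.1 by 3.44 and F46C5.1 by 3.38 on the log2 scale. Among the genes of these paragraphs, the call of Y60C6A.1 was lost without the fasted array numbered 2, and that of F46C5.1 without either fasted array (adjusted p up to 0.05003 and 0.0651).

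**Figure D1:**
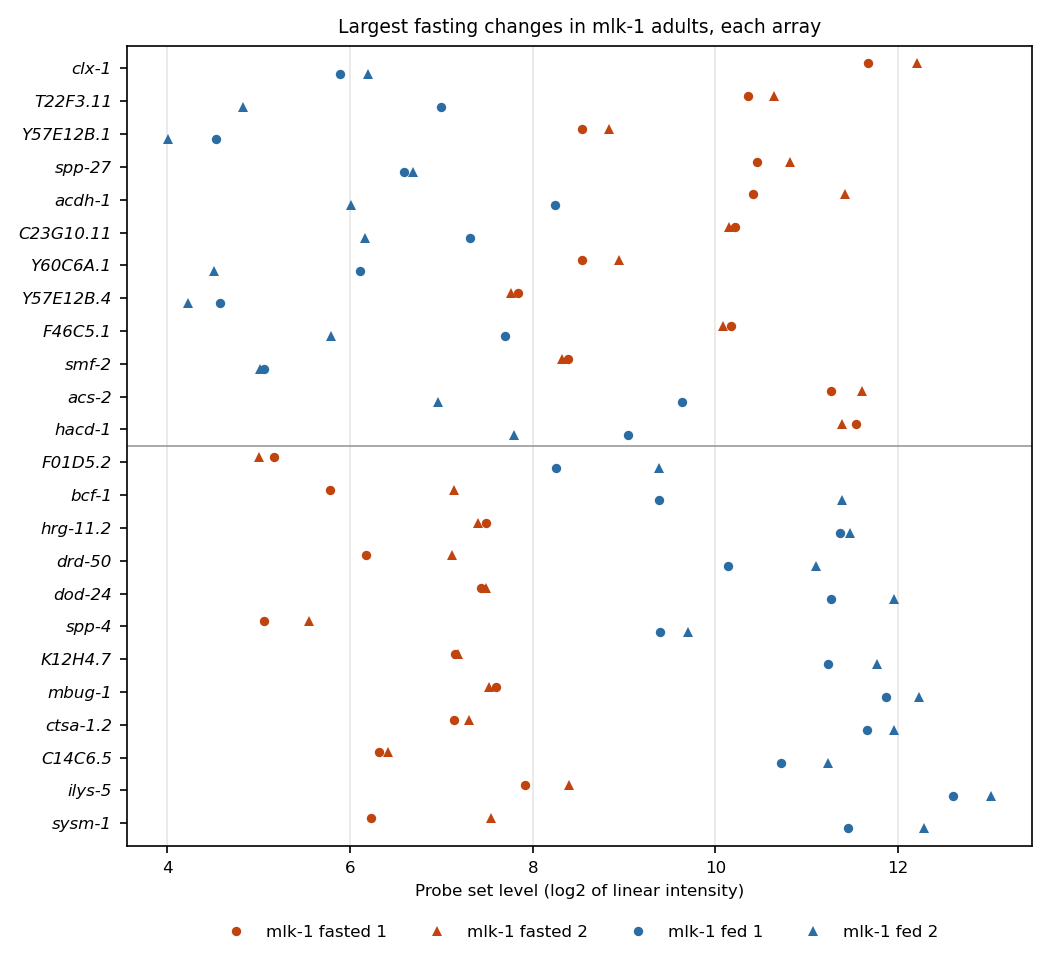
Intensity on the log2 scale (x axis) of the 12 genes with the largest increase (upper rows) and the 12 with the largest decrease (lower rows) in fasted against fed mlk-1 adults, 1 point per array (orange: fasted, blue: fed, circles: array 1, triangles: array 2). Fasted and fed arrays do not overlap in any of these genes, and for T22F3.11, acdh-1 and acs-2 the array fed 1 lies nearer to the fasted arrays than fed 2 does.

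A few genes of fat oxidation rose strongly, and most did not pass. Of 62 genes for fatty acid activation, carnitine transfer and beta-oxidation, acdh-1, acs-2 and hacd-1 rose and none fell, and the median of the list was 0.04, against 0.05 over all genes. With the replicate block 6 were higher and 7 were lower. acs-2, an acyl-CoA synthetase known as a fasting-responsive target of NHR-49, read 2469 and 3125 in fasted animals, against 793 and 125 in fed animals. Fed 1 was thus much brighter than fed 2, and the log2 change of 3.14 ± 0.65 (limma adjusted p = 0.0464) became 1.81 against fed 1 alone and 4.47 against fed 2 alone. Its call was lost in 13 of 21 alternatives, among them the 4 mlk-1 arrays fitted alone (limma adjusted p = 0.0803) and the leaving out of fed 2, of either fasted array or of any mek-1 array but fed 3.

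acdh-1, an acyl-CoA dehydrogenase of the propionate shunt, read 1364 and 2744 in fasted animals, against 304 and 64.6 in fed animals (log2 change 3.79 ± 0.77, limma adjusted p = 0.0421). Its call was lost in 10 of 21 alternatives, with adjusted p up to 0.318, including those without fed 2, without either fasted array and without the mek-1 arrays fed 1, fed 2 or fasted 3. hacd-1, a hydroxyacyl-CoA dehydrogenase, read 2975 and 2684 in fasted animals, against 529 and 221 in fed animals. Its increase of 3.05 ± 0.34 (limma adjusted p = 0.00126) passed under every alternative.

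Lipid handling genes went both ways. far-7, whose product binds fatty acids and retinol, read 765 and 595 in fasted animals, against 206 and 89 in fed animals, and rose by 2.32 on the log2 scale. Its relative far-3 and the lipid-binding genes lbp-7 and lbp-2 fell, with log2 changes of -2.72, -1.87 and -0.84. These were the calls among 17 lipid-binding genes. Of 28 lipase genes lipl-2, lips-14 and fil-1 fell and none rose (5 lower with the replicate block). fil-1, a lipase named for its induction by fasting, read 56.5 and 48.0 in fasted animals, against 375 and 239 in fed animals, a log2 change of -2.52 ± 0.38 (limma adjusted p = 0.00860) that missed the threshold without fed 1 or without either fasted array (adjusted p up to 0.0938). Of 22 genes for fatty acid synthesis, elongation and desaturation, elo-6, an elongase, alone passed: 2498 and 2576 in fasted animals, against 963 and 1051 in fed animals. Of these genes 4 were higher and 1 was lower with the replicate block, and of the lipid-binding genes 2 were higher and 5 were lower. The desaturase gene fat-7 read 86.7 and 128 in fasted animals, against 202 and 373 in fed animals, and its change of -1.38 ± 0.43 did not pass (limma adjusted p = 0.201), although it did with the replicate block. The calls of far-7, far-3, lbp-7, lbp-2, lipl-2 and lips-14 were each lost without fed 2 and without either fasted array, with adjusted p between 0.183 and 0.261 at the highest.

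Carbohydrate and energy genes showed few calls. The acid alpha-glucosidase genes aagr-1 and aagr-2 fell, with log2 changes of -1.98 and -1.42, and pyk-2, a pyruvate kinase gene, rose by 1.05, out of 29 genes of glycolysis, glycogen and trehalose, of which the replicate block called 2 higher and 3 lower. None of 28 genes of the TCA and glyoxylate cycles and gluconeogenesis passed, with a median of 0.26, and none of 47 genes of the respiratory chain and ATP synthase, with a median of 0.23. At an unadjusted p of 0.05, 7 and 10 of these genes were higher and none was lower, and with the replicate block 3 and 1 were called higher. Both fasted arrays lay above both fed arrays in 17 and 33 of them, against 29.4% of all genes. They lay below in 1 gene of each list, against 16.5% of all genes. icl-1, the glyoxylate cycle enzyme, read 3060 and 2904 in fasted animals, against 2798 and 867 in fed animals. Fed 1 was close to the fasted arrays and fed 2 was not, and the change of 0.94 ± 0.63 did not pass (limma adjusted p = 0.655). The 3 calls of this paragraph were lost without fed 2 or without either fasted array (adjusted p up to 0.333).

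Digestive enzymes of gut and lysosome included some of the largest decreases. Of 35 genes for aspartyl, cysteine and serine carboxypeptidase proteases, 7 were lower and none was higher, against 1.11% of all genes lower, and the median of the list was -0.56. These values describe a list chosen with earlier results of these data known. ctsa-1.2, a cathepsin A type carboxypeptidase gene, read 141 and 157 in fasted animals, against 3240 and 3968 in fed animals, a 24.1-fold decrease (log2 change -4.59 ± 0.20, limma adjusted p = 1.89e-06). The aspartyl protease gene asp-17 read 66.1 and 89.9 in fasted animals, against 1025 and 866 in fed animals. cpr-1, a cathepsin B type gene, had 424 and 595 in fasted animals and 4679 and 4796 in fed animals. asp-1, the chief intestinal aspartyl protease, had 1945 and 2077 in fasted animals and 8247 and 9485 in fed animals. In each of these genes the states were well apart. The log2 changes of asp-17, cpr-1, cpr-9 and asp-1 were -3.61, -3.24, -2.61 and -2.14, and their calls were lost without 1 or more of the mlk-1 arrays, in each case without the fasted array numbered 1 (adjusted p up to 0.0725, 0.161, 0.260 and 0.0879). Under the block 17 of the 35 genes were lower. Among decreases outside the lists, K12H4.7, a predicted serine protease gene, read 142 and 145 in fasted animals, against 2406 and 3500 in fed animals. C14C6.5 read 79.7 and 85.5 in fasted animals, against 1680 and 2406 in fed animals. drd-50 had 72.4 and 138 in fasted animals and 1126 and 2201 in fed animals. Both passed in every alternative that held their probe set, and that of C14C6.5 was left out by the filter on binding to several genes.

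Lysozymes, saposin-like proteins and other antimicrobial peptides held more decreases than increases. Of 58 genes, 7 fell and 3 rose, with a median of -0.39, against 1.11% of all genes lower and 0.532% higher. ilys-5, an invertebrate-type lysozyme gene, read 242 and 336 in fasted animals, against 6201 and 8278 in fed animals (log2 change -4.65 ± 0.47, limma adjusted p = 7.25e-04). spp-4 read 33.3 and 46.9 in fasted animals, against 674 and 830 in fed animals, and lys-8, a lysozyme gene, read 1370 and 1243 in fasted animals, against 5270 and 5136 in fed animals. spp-18 fell by 2.92. The direction was thus not shared by all members, since spp-27 was among the largest increases of all. With the replicate block 3 members were higher and 15 were lower.

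A list of p38-dependent and other infection response genes had the lowest median of the 50 lists, -1.43 (-0.84 against fed 1 and -1.81 against fed 2). Its irg, dod and sysm members were taken by gene name, so not all of them are known targets of the p38 kinase pathway. Like the other lists, it was chosen with earlier results of these data known, so its rank is a description only. Of the 20 genes 1 was higher and 10 were lower, against 0.532% and 1.11% of all genes. The replicate block called 2 higher and 13 lower. sysm-1, a reporter gene for the p38 pathway, read 75.1 and 186 in fasted animals, against 2804 and 4969 in fed animals. Its log2 change of -4.98 ± 0.86 (limma adjusted p = 0.0185) was the largest decrease among the called genes named here, and it was called in the 4 arrays alone (limma adjusted p = 0.00140) but not when any 1 mlk-1 array was left out (adjusted p up to 0.191). dod-24, which encodes a CUB-like domain protein, read 173 and 180 in fasted animals, against 2460 and 3976 in fed animals (log2 change -4.15 ± 0.40, limma adjusted p = 5.96e-04). C17H12.8, another gene for a CUB-like domain protein, read 130 and 236 in fasted animals, against 1381 and 2509 in fed animals. The kinase gene sek-1 of the p38 pathway itself read 322 and 335 in fasted animals, against 243 and 257 in fed animals, and its change of 0.39 ± 0.15 did not pass (limma adjusted p = 0.326).

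C-type lectins, many of them intestinal and responsive to microbes, held 2 increases and 15 decreases among 220 genes, with a median of 0.00 (6 and 25 with the replicate block). Over all genes 0.532% were higher and 1.11% lower, or 2.76% and 2.97% with the block. clec-41 read 130 and 125 in fasted animals, against 890 and 2061 in fed animals. clec-174 read 535 and 375 in fasted animals, against 4120 and 4818 in fed animals. Their log2 changes of -3.41 and -3.31 passed in every alternative, while the decreases of clec-67 and clec-85 (28.1 and 34 in fasted animals against 175 and 407 in fed animals for clec-67) were lost without fed 2 or either fasted array (adjusted p up to 0.140 and 0.171). bcf-1, a gene known for a part in bacterial colonisation of the gut, read 54.9 and 141 in fasted animals, against 669 and 2668 in fed animals, and its log2 change of -3.93 ± 0.56 (limma adjusted p = 0.00592) was lost without the fasted array numbered 1 (adjusted p = 0.0760).

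**Figure D2:**
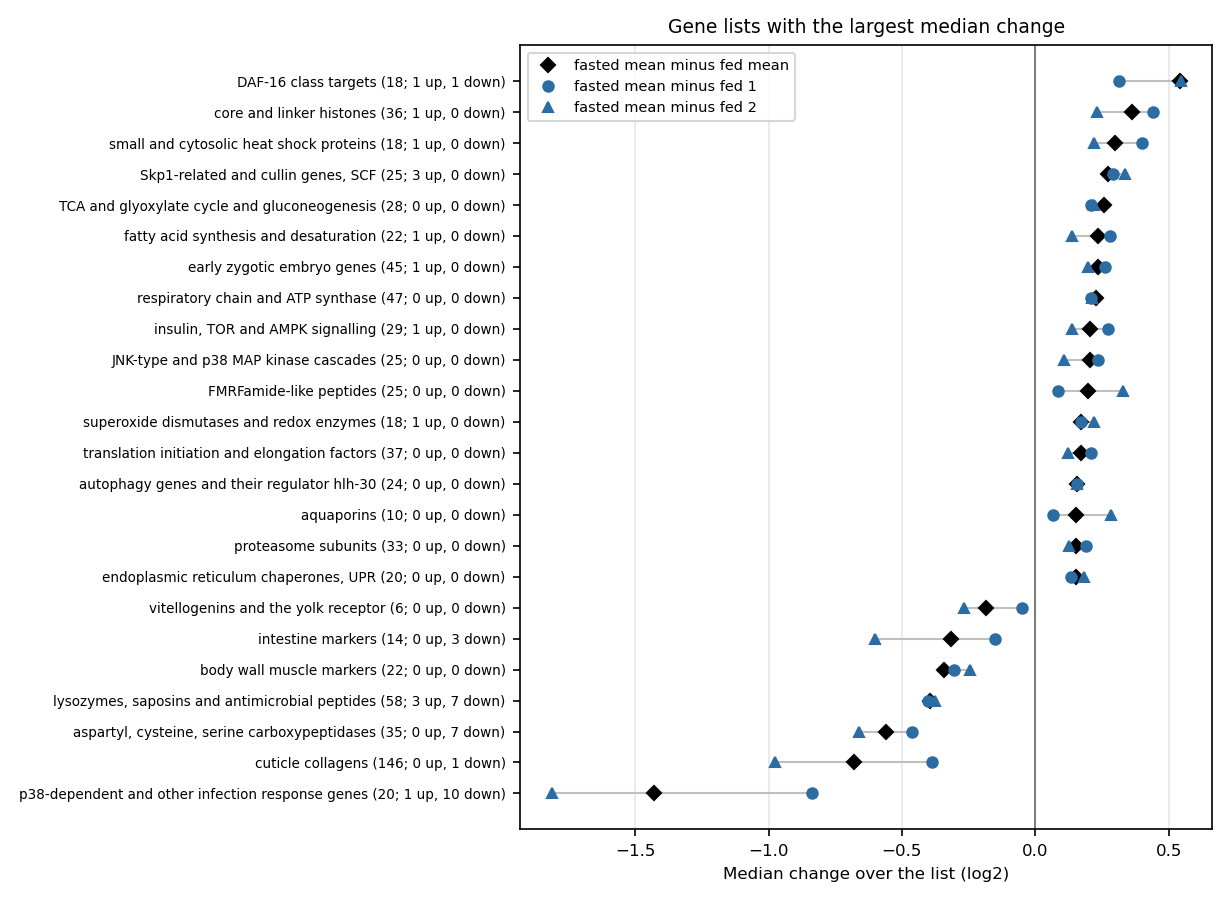
Median log2 change over the members of a gene list in mlk-1 adults (x axis) for the 24 lists with the largest medians in either direction, with the number of genes and of members past the test in brackets (black diamond: fasted mean minus fed mean, blue circle: fasted mean minus fed 1, blue triangle: fasted mean minus fed 2). The list of infection response genes lies lowest, at -1.43, and its medians are -0.84 against fed 1 and -1.81 against fed 2.

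Cuticle collagens had a low median and almost no calls. Of 146 genes, col-183 alone passed, and it fell (28.5 and 24.2 in fasted animals, 318 and 365 in fed animals, log2 change -3.70 ± 0.69, limma adjusted p = 0.0294). The median of the list was -0.68, or -0.39 against fed 1 and -0.98 against fed 2. Both fasted arrays lay below both fed arrays in 98 of the 146 genes, against 16.5% of all genes. The count of lower members was 24 with the 4 mlk-1 arrays alone and 47 with the replicate block, and col-183 itself was lost when any mlk-1 array was left out (adjusted p up to 0.212). The summed intensity of the list was 47329 and 43033 in fasted animals, against 78654 and 128830 in fed animals.

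Markers of tissues were read to see which cell types contributed to the RNA. Of 14 intestine markers 3 fell, namely asp-1, pgp-1 and vha-6, and none rose, with a median of -0.31, or -0.15 against fed 1 and -0.60 against fed 2. The replicate block called 4 lower. The summed intensity of the intestine markers was 9540 and 9595 in fasted animals, against 20086 and 23643 in fed animals. More of that difference lay in asp-1 than in the other 13 markers together, which summed to 7595 and 7519 in fasted animals, against 11840 and 14157 in fed animals. vha-6, a subunit of the intestinal proton pump, read 421 and 402 in fasted animals, against 864 and 987 in fed animals. All 3 calls were lost without fed 2 or without either fasted array (adjusted p up to 0.247). None of 22 body wall muscle markers passed. Their median was -0.34, or -0.21 without the fasted array numbered 2, and it ranged from -0.43 to -0.08 over all alternatives. With the 4 mlk-1 arrays alone and with the replicate block 4 were lower, and 1 was higher and 3 were lower at an unadjusted p of 0.05. Of 42 germline and oocyte genes (median -0.05), 14 pharynx markers (median 0.01), 16 epidermis markers (median 0.09) and 27 neuron markers (median 0.08) none passed either, and at an unadjusted p of 0.05 at most 4 of any of these lists were higher and at most 1 was lower. The part of the shift in intestine markers in the decreases of protease, lysozyme and infection response genes was not tested.

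The transcripts of the kinase cascade and its transcription factors did not pass the test. None of 25 genes of the JNK-type and p38 cascades was called, and the median was 0.20; at an unadjusted p of 0.05, 5 were higher and 1 was lower, and with the replicate block 1 was called higher. kgb-1 read 220 and 183 in fasted animals, against 205 and 164 in fed animals, with overlapping arrays (log2 change 0.13 ± 0.17, limma adjusted p = 0.854). jun-1 read 424 and 488 in fasted animals, against 464 and 570 in fed animals (log2 change -0.18 ± 0.18). fos-1 read 151 and 156 in fasted animals, against 108 and 131 in fed animals (log2 change 0.37 ± 0.16), and vhp-1, the phosphatase that acts on KGB-1, had a log2 change of 0.30 ± 0.14. For the 4 genes the limma adjusted p lay between 0.388 and 0.854.

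Skp1-related genes, which encode adaptors of SCF ubiquitin ligases, held 3 increases and no decrease among 25 genes that include the cullins. skr-5, reported elsewhere as a fasting-responsive gene, read 228 and 200 in fasted animals, against 67.2 and 87.5 in fed animals (log2 change 1.48 ± 0.18, limma adjusted p = 0.00207). skr-15 and skr-4 rose by 0.75 and 0.73, and their calls were lost when any mlk-1 array was left out (adjusted p up to 0.184 and 0.217). With the replicate block 6 of the 25 genes were higher. Among 310 F-box genes, whose products bind Skp1, fbxb-13 rose and fbxa-10 fell, and neither was called by the 4 mlk-1 arrays alone. These counts are not above the shares of all genes, 0.532% higher and 1.11% lower. The replicate block gave 21 higher and 2 lower, against 2.76% and 2.97% of all genes.

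Insulin-like peptides and stress genes gave single calls. ins-7, an intestinal insulin-like peptide gene, read 74.5 and 88.0 in fasted animals, against 456 and 628 in fed animals, with a log2 change of -2.72 ± 0.39 (limma adjusted p = 0.00560). ins-11 read 459 and 319 in fasted animals, against 76.5 and 96.3 in fed animals, and rose by 2.16 ± 0.21 (limma adjusted p = 5.96e-04). These were the calls among 24 insulin-like peptide genes (3 higher and 1 lower with the replicate block), and that of ins-7 was lost without fed 2 or without the fasted array numbered 1 (adjusted p up to 0.0763). sod-3, a mitochondrial superoxide dismutase gene and a common readout of the transcription factor DAF-16, read 275 and 227 in fasted animals, against 125 and 128 in fed animals (log2 change 0.98 ± 0.16, limma adjusted p = 0.0115). It was lost without either fed array or without the fasted array numbered 1 (adjusted p up to 0.142). Of 18 DAF-16 class targets, sod-3 rose and lys-8 fell, with a median of 0.54, or 0.31 without fed 2 (7 higher and 2 lower with the replicate block).

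Further single calls were aakg-4, a subunit gene of AMP-activated kinase (up by 1.14), nhr-21 among 259 nuclear hormone receptor genes (up by 1.36), hsp-70 among 18 heat shock genes (up by 1.17), his-71 among 36 histone genes (up by 0.80) and sdz-21 among 45 early zygotic genes (up by 0.73). Over all genes 0.532% were called higher, or 2.76% with the replicate block, so 1 call among 259 nuclear receptors is not above the share of all genes. With the replicate block the nuclear receptors held 9 increases, the heat shock genes 6, the insulin, TOR and AMPK signalling genes 4, the early zygotic genes 3, and the histone genes 8 with 1 decrease. At an unadjusted p of 0.05 the histone genes (median 0.36) held 16 increases and 2 decreases. The early zygotic genes held 14 and 1, and the nuclear receptors 25 and 2. The heat shock genes held 6 increases and no decrease. Over all genes 7.58% were higher and 4.5% lower at that threshold. The linker histone gene hil-1 read 825 and 588 in fasted animals, against 398 and 183 in fed animals, and its change of 1.37 ± 0.41 did not pass (limma adjusted p = 0.176), although it did with the replicate block. Among 23 pals genes, a family known for members induced by intracellular pathogens, pals-26 (189 and 175 in fasted animals, 41.5 and 39.7 in fed animals) and pals-33 rose by 2.17 and 1.17. In detoxification families gst-27, ugt-44 and cyp-13A2 fell, with log2 changes of -1.22, -0.92 and -1.15, out of 45, 64 and 73 genes. Under the block the glutathione S-transferases held 2 increases and 5 decreases, the UDP-glucuronosyltransferases 1 and 9, and the cytochrome P450 genes 1 and 3. The genes hrg-11.2, hrg-11.3 and hrg-11.4, of a family named for its response to haem, fell, with log2 changes of -3.97, -3.21 and -1.79. Their list of metal and haem genes held 2 increases and 5 decreases under the block, and the antioxidant list held 3 increases. Of the genes of this paragraph that were called, pals-26, hrg-11.2 and hrg-11.3 kept their calls in every alternative, and the others were lost without 1 or more of the mlk-1 arrays, with adjusted p up to 0.314. gst-27, ugt-44 and sdz-21 were also lost with the 4 mlk-1 arrays fitted alone (limma adjusted p = 0.0779, 0.0638 and 0.0534). Without 1 or more of the mek-1 arrays, gst-27, ugt-44, sdz-21, aakg-4 and his-71 were lost too.

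Lists without a call in either direction included the hedgehog-related and patched-related genes (80 genes, median -0.01; 5 higher and 7 lower at an unadjusted p of 0.05, 2 higher and 5 lower with the replicate block). Others were the cytosolic ribosomal proteins (62 genes, median 0.10), the mitochondrial ribosomal proteins (56 genes, median -0.07), the proteasome (33 genes, median 0.15), the tRNA synthetases (33 genes, median -0.03), translation factors (37 genes, median 0.17) and DNA replication and cell cycle genes (33 genes, median 0.14). The same held for autophagy genes (24 genes, median 0.16), endoplasmic reticulum chaperones (20 genes, median 0.15) and FMRFamide-like peptides (25 genes, median 0.20). Hedgehog-related genes aside, at most 5 members of any list of this paragraph without a call passed at an unadjusted p of 0.05, and the replicate block called at most 3, of the FMRFamide-like peptides. Both fasted arrays lay above both fed arrays in 40 cytosolic ribosomal, 22 proteasome and 20 translation factor genes, against 29.4% of all genes. They lay above in 3 and below in 14 mitochondrial ribosomal genes, and above in 7 and below in 8 tRNA synthetase genes, against 16.5% of all genes below. Of 6 vitellogenin and yolk receptor genes none passed (median -0.19). Among 71 sperm genes nspd-7 fell, and among 40 transthyretin-related genes ttr-46 fell; both were lost without fed 2 or without either fasted array (adjusted p up to 0.184). Under the block 5 transthyretin-related genes were lower, and 1 sperm gene was higher and 1 lower.

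The fed arrays were not alike, and fed 1 was often the nearer of the pair to the fasted animals. On the first principal component of the 4 arrays, which held 67.2% of their variance, the fasted arrays lay at 30.9 and 28.7, fed 1 at -22.3 and fed 2 at -37.2. Fed 1 and fed 2 were more than 1 log2 unit apart in 231 genes, against 44 genes for the fasted arrays. Of the 281 called genes, fed 1 lay between fed 2 and the fasted mean in 217 (77.2%), made up of 59 of the 91 increases and 158 of the 190 decreases. Over the 7861 genes whose fasted and fed arrays did not overlap, called or not, that share was 48.5%. The median change of the called decreases was -1.58 against fed 1 and -1.88 against fed 2, and that of the called increases was 1.03 against fed 1 and 1.35 against fed 2. Since the arrays of the called genes do not overlap, the direction against either fed array is fixed by that choice of genes, and it is the size that these values describe.

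The gap between the fed arrays was widest, among called genes, in acs-2, hmit-1.1, acdh-1, T22F3.11 and bcf-1. hmit-1.1, a proton-linked myo-inositol transporter gene, read 30.5 and 39.7 in fasted animals, against 108 and 601 in fed animals. Its log2 change was -2.87 ± 0.57 (limma adjusted p = 0.0386), and its call was lost with the 4 mlk-1 arrays alone (limma adjusted p = 0.0865) and without either fasted array (adjusted p up to 0.246). In acs-2, acdh-1 and T22F3.11 fed 1 exceeded fed 2, by 2.67, 2.23 and 2.17 log2 units. In hmit-1.1 and bcf-1 fed 1 was below fed 2, by 2.48 and 2.00 log2 units. In all 5 genes fed 1 was therefore on the fasted side of fed 2. Intensity ratios of actin probes at the 3′ and 5′ ends, a sign of RNA integrity, were 1.69 and 1.38 on the log2 scale in fasted animals, and 1.56 in fed 1 and 1.46 in fed 2. The same ratios for Gapdh (0.978 in fed 1 and 1.08 in fed 2) and ubiquitin (0.815 and 0.854) put the fed arrays in the opposite order. Their part in the difference between the fed arrays was not tested.

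**Figure D3:**
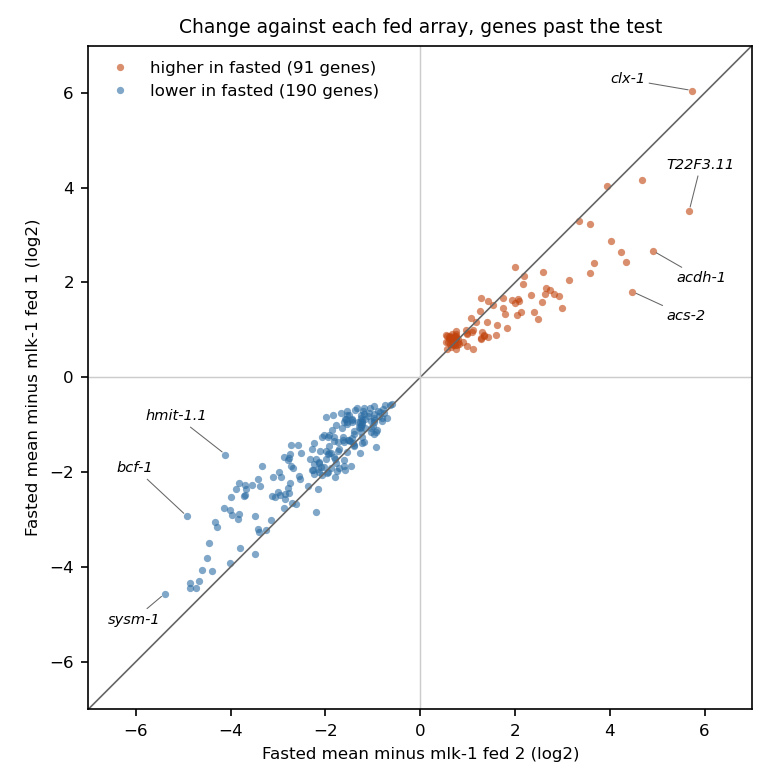
Log2 change of the 281 called genes against each fed array of mlk-1 adults (y axis: fasted mean minus fed 1, x axis: fasted mean minus fed 2; orange: 91 genes higher in fasted animals, blue: 190 lower; diagonal: equal change). Most points lie nearer to 0 on the y axis than on the x axis, since fed 1 lies between fed 2 and the fasted mean in 217 of the 281 genes.

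The question of what differs from the other strain was put to the difference between the fasting effect in mlk-1 and that in mek-1 mutants, tested in the same fit. Of the 190 genes that fell in mlk-1 animals, 163 (85.8%) also fell past the threshold in mek-1 animals, where they made up 25.8% of 633 decreases (3.7% of all genes). Of the 91 that rose, 41 (45.1%) also rose past the threshold in mek-1 animals, where they made up 19.7% of 208 increases (1.22% of all genes). The median effect of the called increases was 1.17 in mlk-1 and 0.56 in mek-1 animals, and that of the called decreases was -1.75 in mlk-1 and -1.69 in mek-1 animals. Calls were chosen in mlk-1, so a smaller median elsewhere shows no difference by itself. Both effects were tested with the same estimate of the spread of each probe set, so the shared calls do not come from independent tests. Opposite signs occurred for 11 of the increases and 2 of the decreases.

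The difference itself passed for 18 of 22548 probe sets (0.0798%), or 59 (0.262%) with the replicate block. By gene it passed for 15 of 17118: 11 with a higher effect in mlk-1 (0.0643%) and 4 with a lower one (0.0234%). Of the 15 genes, 10 were also called in the mlk-1 effect. In clx-1, Y57E12B.1, Y57E12B.4 and smf-2, only the fasted mlk-1 arrays stood apart among the 10 arrays. The clx-1 probe set, at 3253 and 4743 in fasted mlk-1 animals, read 58.8 to 65.6 in fasted mek-1 animals and 59.8 to 71.4 in fed mek-1 animals. The effect was 6.01 ± 0.25 log2 units higher in mlk-1 (limma adjusted p = 4.72e-06). Those of Y57E12B.1, Y57E12B.4 and smf-2 were 4.37 ± 0.27, 3.30 ± 0.18 and 3.21 ± 0.17 higher (limma adjusted p between 2.49e-05 and 8.56e-05). These 4 differences passed in every alternative that held the probe set. The probe sets used for Y57E12B.1 and Y57E12B.4 were left out by the filters on dim probe sets and on binding to several genes. Those filters could therefore not test these probe sets. A second probe set of Y57E12B.4, whose name does not mark it as binding several genes, had a difference of 2.82 ± 0.19 (limma adjusted p = 1.39e-04).

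For ins-11 and H02F09.3 the fasted mlk-1 arrays were again the highest. ins-11, at 459 and 319 in fasted mlk-1 animals and 76.5 and 96.3 in fed mlk-1 animals, lay between 74.6 and 101 on the 6 mek-1 arrays, and its effect was 2.23 ± 0.27 higher in mlk-1 (limma adjusted p = 0.0158). H02F09.3 read 744 and 594 in fasted mlk-1 animals and 180 and 105 in fed mlk-1 animals, against 59.9 to 80.8 in fasted mek-1 animals and 78.6 to 103.9 in fed mek-1 animals, with an effect 2.63 ± 0.33 higher in mlk-1 (limma adjusted p = 0.0217). The difference was lost for ins-11 in 6 of 19 alternatives, including those without the mlk-1 arrays fed 1 or fasted 1 (adjusted p up to 0.0932), and for H02F09.3 in 5 of 20, including those without either mlk-1 fasted array (adjusted p up to 0.208). Both were also lost without either mek-1 array numbered 1.

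The lower effects came mostly from a stretch of chromosome IV. F55G11.8, dod-22 and F55G11.2, which encode CUB-like domain proteins, are consecutive protein-coding genes in the RefSeq annotation of assembly WBcel235. F55G11.2 read 32.6 and 37 in fasted mlk-1 animals and 290 and 695 in fed mlk-1 animals, against 31.4 to 43.2 in fasted mek-1 animals and 28.1 to 50.8 in fed mek-1 animals. F55G11.8 read 23.6 and 33.1 in fasted mlk-1 animals and 207 and 394 in fed mlk-1 animals, against 16 to 18 in fasted mek-1 animals and 18.6 to 24.3 in fed mek-1 animals. dod-22 read 30.8 and 26.8 in fasted mlk-1 animals and 146 and 369 in fed mlk-1 animals, against 17.1 to 18.9 in fasted mek-1 animals and 16 to 20.7 in fed mek-1 animals. For these genes it was thus the fed mlk-1 arrays that stood apart, while the mek-1 arrays lay low in either state. For F55G11.8 and dod-22 they lay at or near the floor, where no decrease could be read, so the size of those differences is uncertain.

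The difference of the effects, mlk-1 minus mek-1, was -3.81 ± 0.49 for F55G11.2 (limma adjusted p = 0.0219), -3.01 ± 0.35 for F55G11.8 (limma adjusted p = 0.0143) and -3.0 ± 0.43 for dod-22 (limma adjusted p = 0.0402). The call was lost in 8 of 20, 5 of 19 and 12 of 19 alternatives (adjusted p up to 0.208, 0.134 and 0.462), in each case also without the mlk-1 fasted array numbered 1 and without the mek-1 arrays fed 1 or fasted 1. In the stretch of 14 protein-coding genes between cld-1 and dod-17, chosen after values were seen, 11 had a probe set of their own, 5 fell in mlk-1 animals and 3 differed between the strains. dod-24 had effects of -4.15 in mlk-1 and -1.27 in mek-1 animals, a difference that did not pass (limma adjusted p = 0.163), and mbug-1 had effects of -4.49 in mlk-1 and -3.52 in mek-1 animals. F55G11.7, next to F55G11.8, had an effect of 0.22 in mlk-1 animals (limma adjusted p = 0.539). F49F1.5, elsewhere on chromosome IV, had effects of -1.36 in mlk-1 and 0.18 in mek-1 animals, and the difference of -1.53 (limma adjusted p = 0.00836) was lost without either mlk-1 fasted array (adjusted p up to 0.0859).

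**Figure D4:**
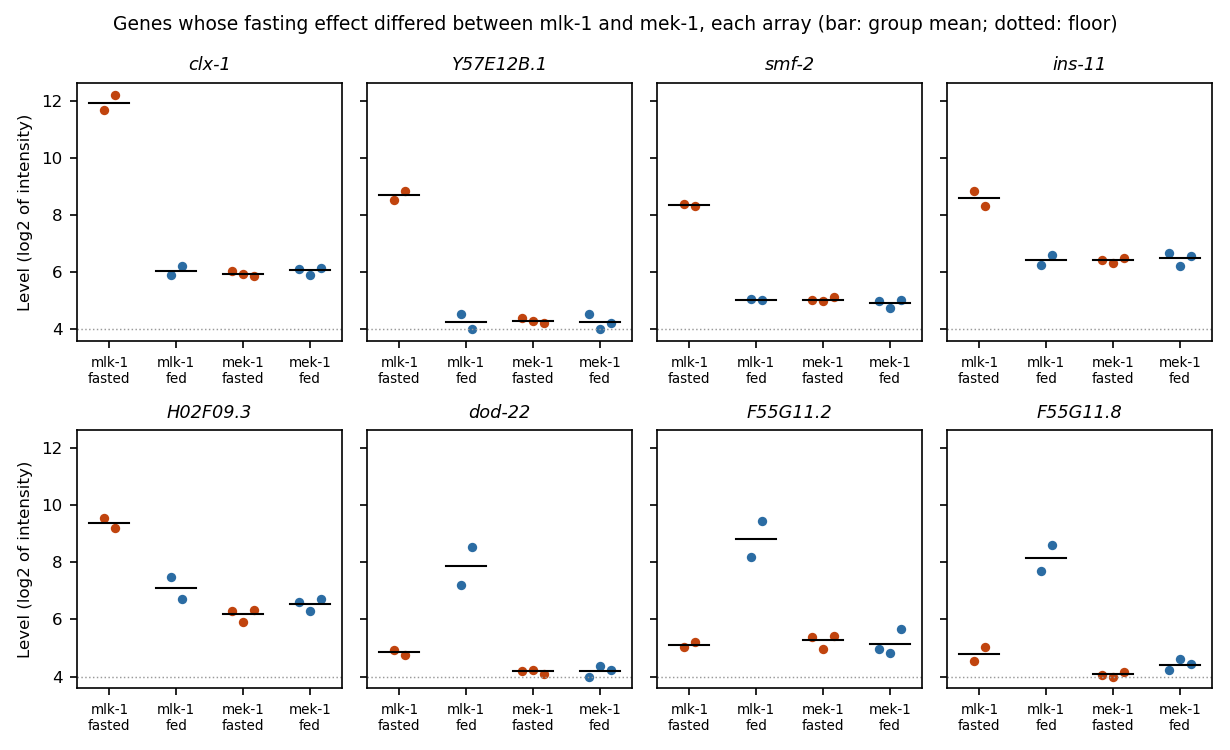
Intensity on the log2 scale (y axis) on each of the 10 arrays for 8 genes whose fasting effect differed between mlk-1 and mek-1 animals (orange: fasted, blue: fed, bar: group mean, dotted line: floor of the table). Fasted mlk-1 arrays stand above all others in the upper row and for H02F09.3, and fed mlk-1 arrays stand above all others for dod-22, F55G11.2 and F55G11.8.

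For mek-1 itself the fasting effect was 1.17 ± 0.16 higher in mlk-1 animals (limma adjusted p = 0.0328), where it was 0.27, against -0.90 in mek-1 mutants, whose probe set was dim in either state. Its call was lost in 12 of 20 alternatives, among them each one that left out an mlk-1 array (adjusted p up to 0.221). The remaining 4 genes, named after their values were seen, were M28.8, B0348.2, dod-23 and F59B1.2, with differences of 2.1, 1.70, 1.61 and 1.24. In the mlk-1 effect none of these 4 passed, although M28.8, B0348.2 and dod-23 did with the replicate block (limma adjusted p = 0.0304, 0.0336 and 0.00644), and dod-23 did in 9 of 21 alternatives. Each of the 4 fell in mek-1 animals. dod-23 read 2469 and 3172 in fasted mlk-1 animals and 4146 and 5369 in fed mlk-1 animals, against 1249 to 1302 in fasted mek-1 animals and 6406 to 6810 in fed mek-1 animals. These 4 calls were each lost in 8 or more of 20 alternatives. skr-5, sod-3, acdh-1 and spp-27 are examples of genes that changed in mlk-1 animals and did not pass in mek-1 animals, but their differences did not pass either (limma adjusted p between 0.185 and 0.238), although that of spp-27 did with the replicate block (limma adjusted p = 0.0403).

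**Figure D5:**
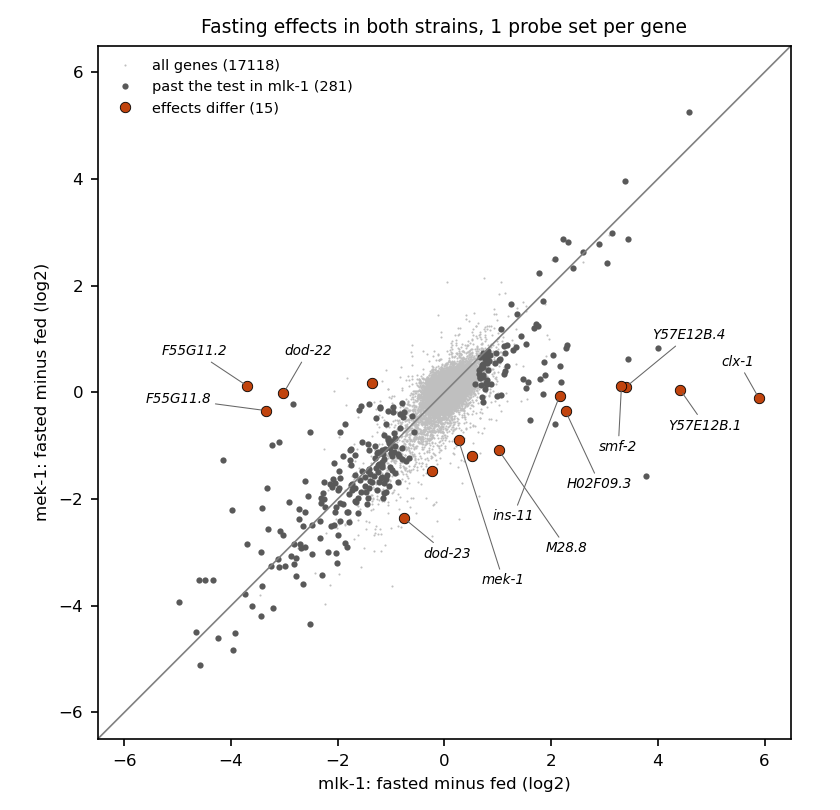
Fasting effect on the log2 scale in mlk-1 animals (x axis) and in mek-1 animals (y axis), 1 probe set per gene (light grey: all 17118 genes, dark grey: 281 genes called in mlk-1, orange: 15 genes whose effects differ, diagonal: equal effects). clx-1, Y57E12B.1, Y57E12B.4 and smf-2 lie far to the right near 0 on the y axis, and F55G11.2, F55G11.8 and dod-22 lie far to the left near 0.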

How the data were processed

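The deposited table holds a linear intensity for each probe set on each array, which the authors summarised from the probes; the method of summary and normalization was not given in the sources used here. Biotin-labelled RNA was made by 3′ IVT, per the labels' protocols. Intensities were taken to log2 with no constant added. Of 22625 probe sets, 77 controls were left out. Probe sets were named from the platform annotation, 20766 with 1 symbol, 887 with several and 895 with none, and a gene was represented by its brightest probe set over the 4 mlk-1 arrays (17118 genes). Gene order came from RefSeq (WBcel235), and no promoter sequence was used here, so the planned motif search was not run.

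Group means of all 10 arrays were fitted with limma 3.58.1 in R 4.3.3 (lmFit and eBayes, 6 residual degrees of freedom, Benjamini-Hochberg, threshold 0.05), which was tested on simulated data. The fit of the 4 mlk-1 arrays alone has 2 residual degrees of freedom. Alternatives changed the constant, normalization, filters, variance model, arrays and replicate block. An alternative whose filter left out the probe set of a gene was not counted for that gene. Figures used Python 3.11.15 and matplotlib 3.10.9.

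Named were the 12 largest called increases and decreases with separate arrays, up to 4 called members of each of 50 lists (further members where at most 5 passed), the 6 largest differences each way, the 5 called genes with the widest gap between fed arrays, and a fixed set of kinase cascade, lipid and stress genes. Members and lists were chosen with earlier results of these data known. Deviations from the group mean of same-numbered arrays correlated at 0.407, 0.639 and 0.555 in mek-1 and at 0.320 in mlk-1 animals, where 2 arrays per group give 1 value by construction. The numbers were taken to pair the arrays from the mek-1 values and not from the labels, and the single mlk-1 value could not decide pairing in that strain. The main tests used the fit without the block, and blocked counts stand beside the lists of genes they change most.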

Additional observations from a re-analysis of the deposited data

Results flagged for a closer look

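The results below were singled out because the fasting effect differed between the strains in a limma test of the difference itself (adjusted p below 0.05 over all probe sets, 2 arrays per mlk-1 group and 3 per mek-1 group). The differences, given as the mlk-1 effect minus the mek-1 effect on the log2 scale, were positive for clx-1 (6.01), Y57E12B.1 (4.37), Y57E12B.4 (3.30), smf-2 (3.21), H02F09.3 (2.63), ins-11 (2.23), M28.8 (2.1), B0348.2 (1.70), dod-23 (1.61), F59B1.2 (1.24) and mek-1 (1.17). They were negative for F49F1.5 (-1.53), dod-22 (-3.0), F55G11.8 (-3.01) and F55G11.2 (-3.81).

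For clx-1, Y57E12B.1, Y57E12B.4, smf-2, ins-11 and H02F09.3 the fasted mlk-1 arrays were the highest of the 10 arrays. For F55G11.8, dod-22 and F55G11.2 the fed mlk-1 arrays were the highest. Of the 18 probe sets, 2 carry several gene symbols and were given no name: 1 read 422 and 681 in fasted mlk-1 animals and 19.8 and 22.3 in fed mlk-1 animals, and the other read 33.4 and 45.3 in fasted mlk-1 animals and 966 and 2284 in fed mlk-1 animals. The groups held 2 or 3 arrays, so no single array could be tested as standing apart.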

How the results depend on the processing

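Only 2 mlk-1 arrays were available per state, and in the main fit the estimate of the spread drew on the 6 mek-1 arrays too. The main count of 346 probe sets became 565 with array weights (224 higher), 523 with the 4 mlk-1 arrays alone (368 lower), 718 without both mek-1 arrays numbered 3 (262 higher, 456 lower) and 217 without probe sets able to bind transcripts of several genes (137 lower). A constant of 64 left 148 lower, and a 2-fold minimum left 71 higher. With the replicate block, which pairs same-numbered arrays, 1218 were called (593 higher, 625 lower). Leaving out 1 array gave 121 to 501 in all, 29 to 171 higher and 87 to 330 lower. The difference between strains, 18 probe sets, became 10 without the dimmest 30%, 32 with array weights, 59 with the replicate block and 6 to 34 with 1 array left out. The share of called genes with fed 1 between fed 2 and the fasted mean, 77.2%, became 70.2% with a constant of 64, 71.6% with the 4 arrays alone, 70.7% without both mek-1 arrays numbered 3 and 63.4% with the replicate block. Each alternative fit's calls that were shared with the 346 had the same sign there, the 2-fold minimum and the difference between strains aside, for which this was not counted. The cause of these shifts was not tested.

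Of 94 named called genes, 39 passed under every alternative, 20 were lost only where an mlk-1 array was left out, 35 were lost under another alternative too, and none changed sign. kgb-1, never called, had log2 changes from -0.028 to 0.30 with 1 mlk-1 array left out, falling below 0 without fed 2 and, at -0.000203, without the fasted array numbered 1. The median change of all probe sets ranged from 0.02 to 0.07.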

Other observations

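The genes described next were chosen after their values were seen, so their counts and p-values describe the choice and support nothing. Of 12 nspg genes, a nematode-specific family of small peptides, 7 were called lower and none higher in fasted mlk-1 animals, where 1.11% of all genes were called lower, with log2 changes from -2.79 to 0.11 over the family. nspg-9 read 426 and 486 in fasted animals, against 2602 and 3783 in fed animals, and nspg-6 read 706 and 692 in fasted animals, against 3272 and 4705 in fed animals. F01D5.1, F01D5.2, F01D5.3 and F01D5.5 of chromosome II also fell, with log2 changes of -2.78, -3.73, -3.03 and -3.13. F01D5.2 read 36 and 32.1 in fasted animals, against 305 and 668 in fed animals. The calls of F01D5.1 and F01D5.3 were lost without fed 2 or either fasted array (limma adjusted p up to 0.112 and 0.168).

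Of genes picked for their decrease, 6 encode enzymes of sphingolipid or amino acid breakdown; other enzymes of those pathways were not counted. asm-2, an acid sphingomyelinase gene, read 40.6 and 44.9 in fasted animals, against 128 and 157 in fed animals, and asah-1, an acid ceramidase gene, read 108 and 111 in fasted animals, against 399 and 335 in fed animals. For amino acid breakdown, tdo-2 and kynu-1 (tryptophan), hgo-1 (tyrosine) and haly-1 (histidine) had log2 changes of -1.02, -1.04, -1.16 and -0.83. Each of these 6 calls was lost without fed 2 or without the fasted array numbered 1 (limma adjusted p up to 0.280).

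By chromosome, X held 23.1% of the called increases and 18.4% of the called decreases, against 13.7% of all genes, and chromosome IV held 25.8% of the called decreases, against 15.6% of all genes. Chromosome I held 8.79% of the increases and 4.21% of the decreases, against 14.4% of all genes. These shares were not tested, and neighbouring genes of 1 family are not independent.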
